A study of Mus musculus with 4 samples.

Results

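The genes described here are 9 regulators of transcription known from the genetics of hematopoietic stem cells (HSCs), namely Hlf, Mecom, Meis1, Gata2, Prdm16, Mllt3, Gfi1b, Erg and Runx1. They were chosen by name, with earlier results of these data known, as were the gene lists below. Their rows were read among the 31053 genes of the count tables. RNA molecules were counted cell by cell in 4 mouse bone marrow libraries made with the 10x Chromium 3' v3 kit, in which each captured molecule carries a unique molecular identifier (UMI). Long-term HSCs (LT-HSC) were sorted as Lin-Kit+Sca1+CD150+CD48- cells and short-term HSCs (ST-HSC) as Lin-Kit+Sca1+CD150-CD48- cells, so the 2 gates differed by CD150, the product of Slamf1. Both gates came from the same 2 male mice, aged 14 weeks, which gave 1 library per gate and mouse. Every library was of the strain Tie2-bG-Micm x RosaYFP, in which the Tie2 promoter, active in endothelial and blood stem cells, drives the Cre. No library lacked these alleles, and the labels do not state whether the Cre had been induced. The study used the profiles of the gates to place single HSCs from barcode tracing experiments.

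HSCs keep their identity through a network of factors that act together on shared enhancers. Gata2, Runx1, Erg and Meis1 bind many of the same regulatory elements in blood progenitors, often with partners such as Tal1, Lmo2 and Fli1. Mecom and Prdm16 are zinc finger proteins of one family, and loss of either depletes HSCs in mice. Hlf, a basic leucine zipper factor, is best known in blood for marking HSCs and restraining their cycling. Gfi1b, a zinc finger repressor, works through the demethylase Kdm1a and is needed for platelet and red cell development. Mllt3 (AF9) is not a sequence-specific DNA binder but reads acylated histones and brings elongation and DOT1L complexes to chromatin.

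The libraries differed in quality. The barcodes kept as cells, with 1000 or more genes, 2000 or more UMIs and no more than 10% mitochondrial UMIs, numbered 22 of 39553 in LT-HSC of mouse 1 and 1217 of 1288 in LT-HSC of mouse 2. For ST-HSC the numbers were 2633 of 2793 (mouse 1) and 1707 of 1784 (mouse 2). The sums over these kept cells were 115305 and 13249904 UMIs in LT-HSC, against 27870823 and 13566531 UMIs in ST-HSC, in the order mouse 1, mouse 2. Without any cell filter, the 39553 barcodes of the first LT-HSC library summed to 13575402 UMIs with a median of 285 per barcode. Of these barcodes, 34884 held 200 to 500 UMIs, and whether they were intact cells was not tested. The gate differences of the 9 factors are therefore also given on this unfiltered sum, in which that library enters whole in place of its 22 kept cells and the other libraries stay as they were. The detection floor of 3 UMIs stood at 26.02 counts per 1e6 counted (CPM) in the kept part of LT-HSC of mouse 1 and at 0.108 to 0.226 CPM for the other libraries. These floors, like all intervals on counts and shares here, cover counting error only. Slamf1 lay at 34.7 and 21.9 CPM in LT-HSC and at 0.825 and 1.40 CPM in ST-HSC, which is the direction of the sort. The first of these values came from 4 UMIs, and unfiltered that library lay lower, at 13.0 CPM of Slamf1. Kit, also a sort gene, lay there at 304 CPM in kept cells and 201 CPM unfiltered. The 6 endothelial markers summed to 34.7 and 25.7 CPM in LT-HSC and to 4.23 and 4.64 CPM in ST-HSC, most of it from Vwf, which platelet-lineage cells also express (34.7 and 22.6 CPM in LT-HSC, against 3.01 and 3.54 CPM in ST-HSC). The defining gene Cdh5 had 0 UMIs in both LT-HSC libraries and 1 UMI in ST-HSC. Of the list, 5 of 6 and 1 of 6 were at 0 in LT-HSC, against 0 and 1 in ST-HSC. Their part in the gate differences was not tested. At most 1 cell barcode was shared by any pair of libraries.

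Of the 9 factors, Gfi1b, Mllt3, Gata2 and Mecom were higher in LT-HSC, and none was lower, in edgeR's quasi-likelihood test on summed counts with Benjamini-Hochberg adjustment over all 12656 genes tested. Across all genes tested, 3.6% were called higher and 3.13% lower, or 3.54% and 3.22% in the fit with a mouse block. The median log2 fold change of the 9 factors was 0.55, beside -0.02 for all genes tested. Since the factors were chosen with earlier results of these data known, this is a description only. Meis1, Prdm16, Erg, Runx1 and Hlf did not pass the threshold of 0.05. The libraries of the gates did not overlap for 8 factors, 7 of them higher and 1 lower in LT-HSC, where 15% of all genes lay higher and 24.2% lower without overlap. On the unfiltered sum, Gfi1b, Mllt3, Gata2 and Prdm16 were called higher and Hlf lower, where 5.04% and 3.82% of 12892 genes were called in those directions (6.59% and 4.87% with the mouse as a block). DESeq2 called Mllt3 alone on kept cells, where it called 0.21% of all genes higher and 0.18% lower. On the unfiltered sum it called Gata2, Mllt3 and Gfi1b higher and Hlf lower, where 3.18% and 2.73% of all genes were called. Gfi1b, Mllt3 and Gata2 were thus called by edgeR on either set of cells, while Mecom, Prdm16 and Hlf each passed on 1 of the 2. The 2 sets share every library but LT-HSC of mouse 1, so a call on both is no independent support.

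The repressor gene Gfi1b showed the largest fold change of the 9. Its level was 32.8 and 32.0 CPM in LT-HSC, mouse 1 before mouse 2, from 4 and 415 UMIs, and 9.80 and 6.16 CPM in ST-HSC, from 271 and 81 UMIs. Both LT-HSC libraries stood above the ST-HSC libraries, though the 4 UMIs of mouse 1 were just over the floor of 3 UMIs. On kept cells, the 95% counting interval of the ratio of LT-HSC to ST-HSC was 0.965 to 9.24 in mouse 1, which includes 1. In mouse 2 it was 4.13 to 6.74. The log2 fold change was 1.97 (SE 0.23), or 3.91-fold with a 95% interval of 2.87 to 5.33 (adjusted p = 1.16e-14). On the unfiltered sum it was 2.01 (SE 0.20, adjusted p = 6.58e-05), and LT-HSC of mouse 1 then held 387 UMIs of Gfi1b at 31.9 CPM. Left without LT-HSC of mouse 1, the fit gave 1.96 (adjusted p = 0.000654), on the assumption that the single LT-HSC library varies as the ST-HSC libraries do. DESeq2 on the kept cells did not call Gfi1b (adjusted p = 0.439), and over all settings its adjusted p ranged from 8.47e-22 to 0.612. Megakaryocyte markers, from a lineage that also uses Gfi1b, summed to 199 and 122 CPM in LT-HSC and to 127 and 112 CPM in ST-HSC, with 1 of 4 markers (Gp1bb) at 0 in LT-HSC of mouse 1, and their part in the difference was not tested.

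Mllt3, the chromatin reader, lay at 320 and 263 CPM in LT-HSC and at 92.9 and 93.4 CPM in ST-HSC, from 39, 3410, 2571 and 1228 UMIs. Both LT-HSC libraries were far above the nearly equal ST-HSC libraries. The mean was 291 ± 40 CPM in LT-HSC, against 93.2 ± 0.364 CPM in ST-HSC (SD, n = 2 each). The log2 fold change was 1.57 (SE 0.19, adjusted p = 6.58e-14), and DESeq2 called it as well (adjusted p = 1.99e-05). On the unfiltered sum the difference was 1.37 (SE 0.17, adjusted p = 0.000266), and without LT-HSC of mouse 1 altogether it was 1.49 (adjusted p = 0.000252). Mllt3 was the 1 factor that both count tests called on kept cells. Of the 18 alternative settings, 1 ended the call, namely leaving out LT-HSC of mouse 2 (log2 fold change 1.78, adjusted p = 0.121).

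Gata2, the zinc finger factor without which HSCs are not maintained, lay at 73.8 and 135 CPM in LT-HSC and at 62.6 and 60.6 CPM in ST-HSC. The LT-HSC library of mouse 2 stood clear of the rest, and that of mouse 1, with 9 UMIs, lay only a little above ST-HSC. The log2 fold change was 1.03 (SE 0.18, adjusted p = 1.13e-06). It rested on LT-HSC of mouse 2 among kept cells, since without that library it was 0.26 (adjusted p = 0.889). With all 1294 UMIs of LT-HSC of mouse 1, however, that library lay at 107 CPM, and the fold change was 1.01 (SE 0.16, adjusted p = 0.00147). Mouse 1 alone then gave a ratio of LT-HSC to ST-HSC of 1.53 (95% counting interval 1.42 to 1.65), and mouse 2 one of 2.24 (2.06 to 2.44). Over all settings the adjusted p of Gata2 ranged from 4.77e-07 to 1. Mast cell and basophil markers, from cells that also express Gata2, summed to 0 and 3.40 CPM in LT-HSC and to 17.8 and 84.7 CPM in ST-HSC. Of those 5 markers, the LT-HSC library of mouse 1, with its floor of 26.02 CPM, lacked 5. That of mouse 2 lacked 3, and the ST-HSC libraries lacked 0. The part of these markers in the difference of Gata2 was not tested.

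The PR-domain genes Mecom and Prdm16 lay higher in LT-HSC by less. Mecom was at 156 and 130 CPM in LT-HSC and at 87.0 and 96.1 CPM in ST-HSC. Its libraries did not overlap, and the log2 fold change of 0.55 (SE 0.19, 95% interval 0.19 to 0.92) passed narrowly with an adjusted p of 0.0453. With the mouse as a block it did not pass (adjusted p = 0.0786), nor on the unfiltered sum (0.47, SE 0.15, adjusted p = 0.0902), and 16 of 18 alternative settings ended the call (adjusted p from 0.0417 to 1). Prdm16 was at 49.2 and 24.5 CPM in LT-HSC and at 17.4 and 15.8 CPM in ST-HSC, where the first value came from 6 UMIs. Both LT-HSC libraries lay above both ST-HSC libraries. Its log2 fold change was 0.62 (SE 0.22, 95% interval 0.18 to 1.06, adjusted p = 0.0756), and on the unfiltered sum it was 0.56 (SE 0.15, adjusted p = 0.0399). Unfiltered, the LT-HSC libraries lay at 23.3 and 23.1 CPM of Prdm16, against 16.4 and 14.9 CPM in ST-HSC.

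Hlf was the factor that leaned the other way. It lay at 664 and 480 CPM in LT-HSC and at 738 and 684 CPM in ST-HSC, so both LT-HSC libraries were below both ST-HSC libraries, that of mouse 1 by little. The log2 fold change was -0.38 (SE 0.20, 95% interval -0.77 to 0.01, adjusted p = 0.399). Unfiltered, LT-HSC of mouse 1 lay at 284 CPM, and the gate difference was then -0.86 (SE 0.23, adjusted p = 0.0336), or 0.549-fold. The lower value came from the shallow barcodes of that library. On plain totals, where the whole library lay at 253 CPM, its barcodes with 200 to 500, 500 to 1000 and 1000 to 2000 UMIs held 259, 223 and 214 CPM of Hlf. The 32 barcodes with 2000 or more UMIs held 610 CPM. The looser cell filter of 500 genes and 1000 UMIs also called Hlf lower (-0.74, adjusted p = 0.00861), and over all settings the adjusted p ranged from 0.000444 to 1. Mouse 2, whose libraries were both of usual depth, gave a ratio of LT-HSC to ST-HSC of 0.708 (95% counting interval 0.686 to 0.732).

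Runx1, Erg and Meis1 showed no difference that passed. Runx1, the DNA-binding subunit of core binding factor, lay at 107 and 103 CPM in LT-HSC and at 100.8 and 95.4 CPM in ST-HSC. The 4 libraries were within a narrow band, and the log2 fold change of 0.08 (SE 0.19) had a 95% interval of -0.29 to 0.45 (adjusted p = 0.996). Erg, an ETS factor required to maintain HSCs, lay at 57.4 and 27.2 CPM in LT-HSC, the first from 7 UMIs, and at 33.4 and 26.7 CPM in ST-HSC. Its groups overlapped, and the log2 fold change was -0.07 (SE 0.22, 95% interval -0.50 to 0.36, adjusted p = 0.996). Meis1, a homeobox factor that pairs with Pbx proteins and Hoxa9, lay at 451 and 346 CPM in LT-HSC and at 299 and 306 CPM in ST-HSC. Both LT-HSC libraries were higher, yet the log2 fold change of 0.32 (SE 0.20, 95% interval -0.07 to 0.71) did not pass (adjusted p = 0.573), and on the unfiltered sum it was 0.12 (SE 0.17). A gate difference of 1 on the log2 scale lay outside the 95% interval of each of these 3 genes, while the smaller differences inside each interval could not be told from 0. Neighbours in the order of fold changes were not tested against each other.

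**Figure D1:**
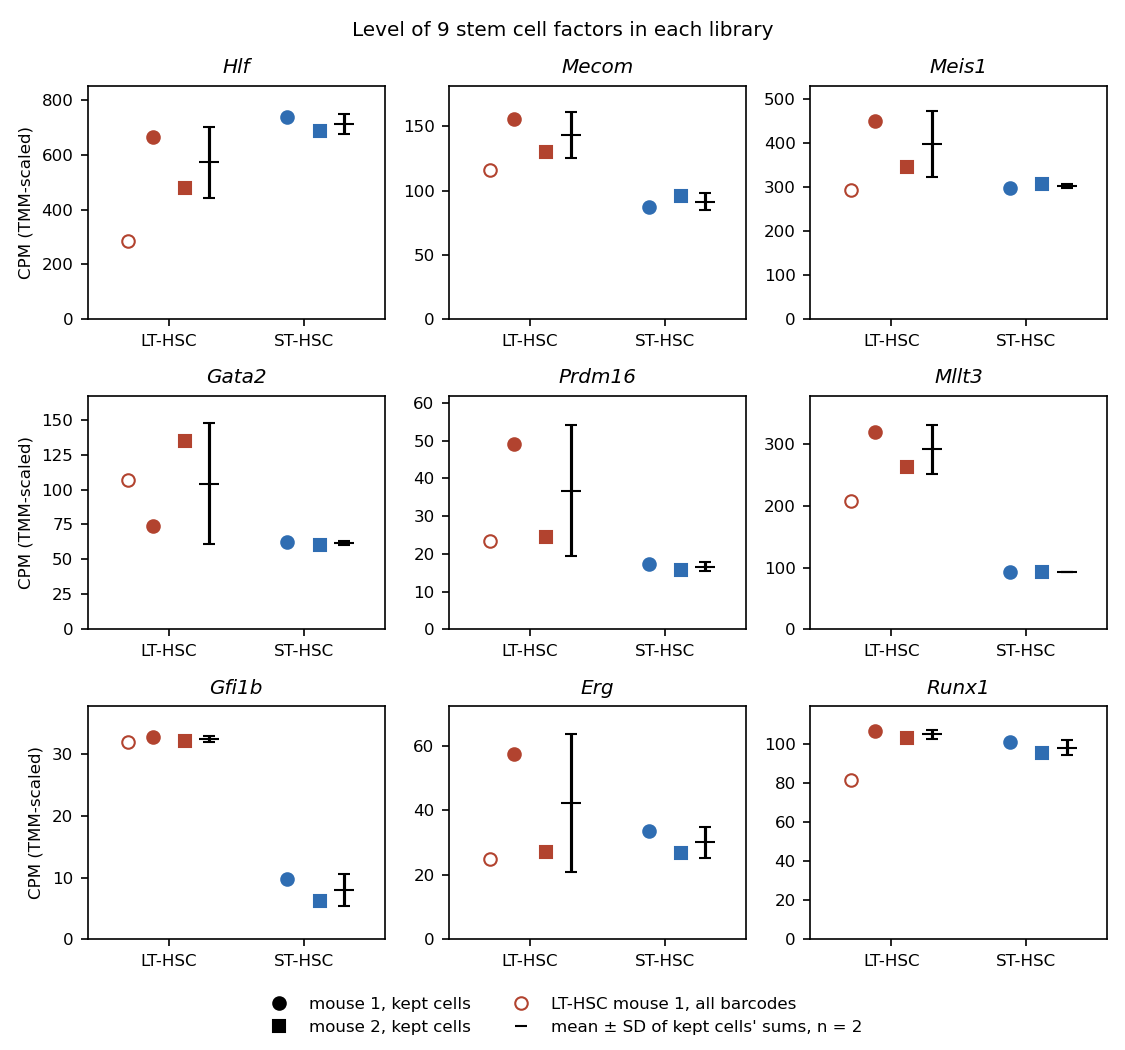
Level of each factor in CPM (vertical axis, starting at 0, TMM-scaled) in LT-HSC and ST-HSC, with circles for mouse 1, squares for mouse 2, open circles for the unfiltered sum of LT-HSC of mouse 1, and bars for the mean ± SD of the kept cells' sums (n = 2). Mllt3 and Gfi1b stand apart by gate, Runx1 lies between 95.4 and 107 CPM in all 4 kept sums, and Hlf of LT-HSC of mouse 1 is 284 CPM unfiltered and 664 CPM in kept cells.

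**Figure D2:**
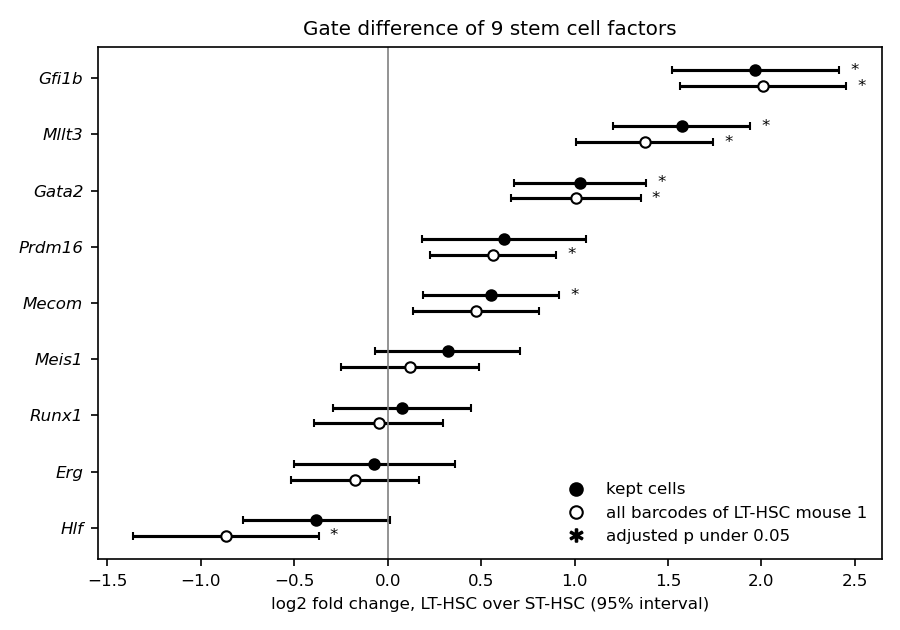
Log2 fold change of LT-HSC over ST-HSC for each factor (horizontal axis) with 95% intervals, for kept cells (filled) and for the unfiltered sum (open), where an asterisk marks an adjusted p under 0.05 in edgeR's quasi-likelihood test. The order runs from Gfi1b at 1.97 to Hlf at -0.38, and the intervals of Meis1, Runx1 and Erg cross 0 on both sets of cells.

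The sequences before the transcription start of the factor with the largest rise, of the GATA factor itself and of the factor that leaned lower are shown as examples of a called factor at each of 2 sizes of rise and of one that was lower without being called on kept cells. They are the 250 bases upstream of a start of Gfi1b (chr2:28621983-28622232, minus strand), Gata2 (chr6:88193641-88193890, plus strand) and Hlf (chr11:90390918-90391167, minus strand) in the RefSeq annotation of mm10, and none overlaps an exon. Each is written 5′ to 3′ on the strand of its gene. Capitals mark matches on either strand to the words GATAA (GATA core), CGGAAG (ETS core), TGTGGT (RUNX core), TGACAG (MEIS core), CANNTG (E-box) and TTACNTAA (PAR bZIP core), which do not overlap here.
Gfi1b: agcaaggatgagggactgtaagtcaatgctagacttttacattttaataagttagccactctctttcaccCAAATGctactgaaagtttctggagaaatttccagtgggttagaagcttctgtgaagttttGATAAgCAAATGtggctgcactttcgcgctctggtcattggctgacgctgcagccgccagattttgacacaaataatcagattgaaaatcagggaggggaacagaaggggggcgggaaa
Gata2: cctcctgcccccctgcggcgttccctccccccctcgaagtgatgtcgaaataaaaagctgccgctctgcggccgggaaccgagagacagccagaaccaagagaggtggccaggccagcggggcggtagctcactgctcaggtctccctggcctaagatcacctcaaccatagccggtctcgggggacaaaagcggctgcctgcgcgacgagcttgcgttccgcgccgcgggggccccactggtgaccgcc
Hlf: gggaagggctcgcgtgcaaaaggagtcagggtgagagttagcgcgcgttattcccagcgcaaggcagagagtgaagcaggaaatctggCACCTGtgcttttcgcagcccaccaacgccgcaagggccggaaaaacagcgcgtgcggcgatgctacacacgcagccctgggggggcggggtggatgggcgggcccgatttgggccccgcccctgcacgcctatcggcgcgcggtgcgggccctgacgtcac
The Gfi1b sequence held 1 GATAA word, followed after 1 base by an E-box, and a second E-box further upstream. The Hlf sequence held 1 E-box, and that of Gata2 held none of the 6 words in these 250 bases. Over the 250 bases upstream of each RefSeq start, 4 of 15 windows of the 9 factors held GATAA (26.7%), against 22.6% of 32851 windows of all genes. An E-box was in 8 of 15 (53.3%), against 66.2%, and TTACNTAA was in 0 of 15, against 2.06%. TGACAG was in 3 of 15 (20%, against 15.9%), CGGAAG in 2 (13.3%, against 13.6%) and TGTGGT in 1 (6.67%, against 14.0%). No share was tested, and a match describes the letters of a window, not a bound site.

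Relatives of these factors were called in both directions. Of 27 genes of the same families, 26 were tested on kept cells, 2 were called higher in LT-HSC (Meis2 and Gata3) and 3 lower (Gfi1, Runx2 and Runx3). Their median log2 fold change was 0.01, and 3.6% of all genes tested were called higher and 3.13% lower. Gfi1, the paralog of Gfi1b and a repressor at the branch to neutrophils, lay at 8.20 and 11.2 CPM in LT-HSC and at 30.6 and 32.6 CPM in ST-HSC. The first of these values came from 1 UMI, under the floor of 3 UMIs. Both LT-HSC libraries were below both ST-HSC libraries, and the log2 fold change was -1.51 (SE 0.24, adjusted p = 6.28e-08), while that of Gfi1b was 1.97. Neutrophil markers moved with Gfi1, with sums of 520 and 500 CPM over 10 genes in LT-HSC and of 1062 and 2391 CPM in ST-HSC. Of the 10, the LT-HSC library of mouse 1 lacked 6 (Elane and Mpo among them), that of mouse 2 lacked 1, and the ST-HSC libraries lacked 0, and their part in the difference of Gfi1 was not tested.

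Runx2 and Runx3, the paralogs of Runx1 that act in bone and lymphocytes, were lower in LT-HSC while Runx1 showed no such difference. Runx2 lay at 65.6 and 60.3 CPM in LT-HSC and at 99.5 and 106 CPM in ST-HSC, a log2 fold change of -0.76 (SE 0.19, adjusted p = 0.00295). Runx3 lay at 8.20 and 41.3 CPM in LT-HSC, the first from 1 UMI, and at 70.3 and 71.5 CPM in ST-HSC, a log2 fold change of -0.85 (SE 0.20, adjusted p = 0.000865). For both genes the LT-HSC libraries lay below the ST-HSC libraries without overlap. Differences between paralogs were not tested. Unfiltered, Gfi1 (adjusted p = 8.97e-05), Runx2 (0.00322), Runx3 (0.00374), Meis2 (0.00144) and Gata3 (0.0128) were called in the same directions. Gata3, a factor of T cells that is also expressed in HSCs, lay at 41.0 and 30.4 CPM in LT-HSC and at 16.99 and 21.4 CPM in ST-HSC (0.70, SE 0.22, adjusted p = 0.0217, and 0.239 with a mouse block). Meis2 was rare, with 1 and 29 UMIs in LT-HSC against 0 and 3 UMIs in ST-HSC, a depth-scaled ratio of 31.0 (95% counting interval 9.64 to 159). Unfiltered, LT-HSC of mouse 1 held 25 UMIs of Meis2. The relatives of Hlf (Dbp, Tef, Nfil3), of Erg (Fli1, Ets1, Ets2, Elf1, Etv6) and of Mllt3 (Mllt1) did not pass the threshold in either direction, and with the mouse as a block Ets2 (adjusted p = 0.0401) was called higher and the Meis relative Tgif1 (0.0321) lower.

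**Figure D3:**
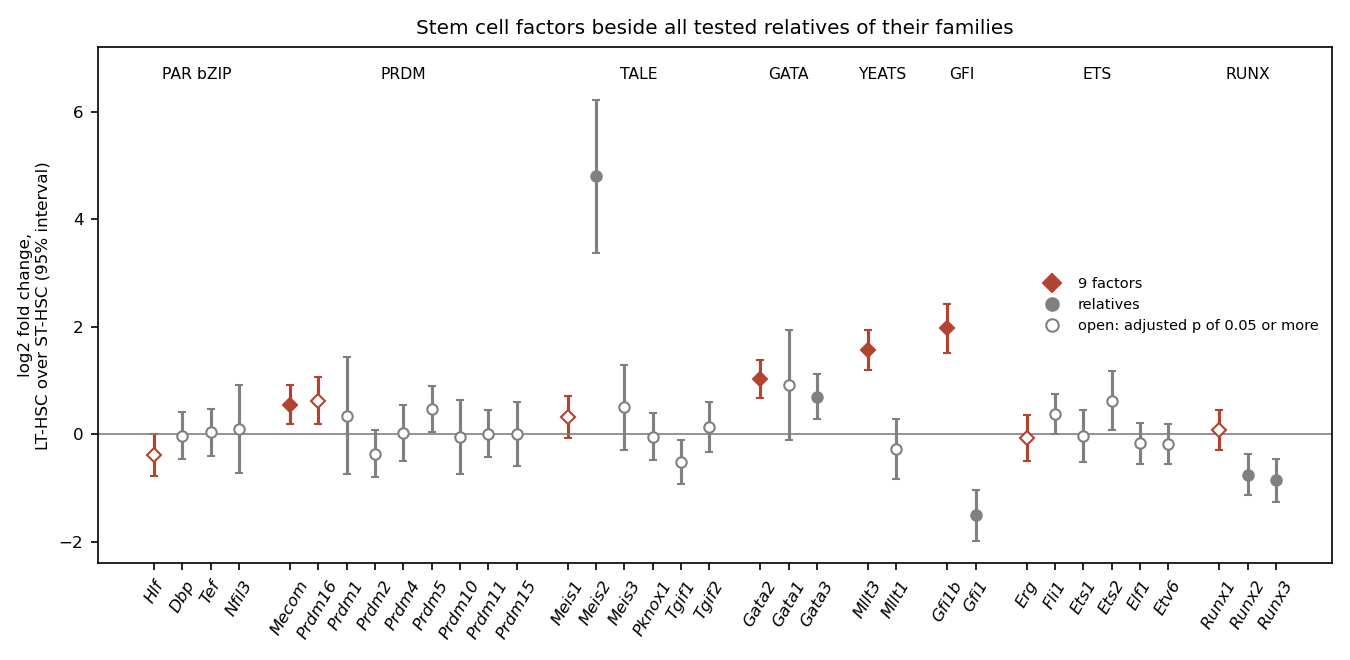
Log2 fold change of LT-HSC over ST-HSC on kept cells (vertical axis, bars are 95% intervals) for the 9 factors (diamonds) and the 26 tested relatives (circles), grouped by family, with filled symbols where the adjusted p of edgeR's quasi-likelihood test was under 0.05. Gfi1b at 1.97 and Gfi1 at -1.51 lie on opposite sides of 0, and Runx1 at 0.08 lies above Runx2 and Runx3.

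Among 21 genes for binding partners, 20 were tested, 3 were called higher in LT-HSC and none lower, with a median of -0.04. The shares over all genes tested were 3.6% higher and 3.13% lower. Among the risers were Pbx3, a homeobox partner of Meis1, and Zfpm1 (FOG1), the cofactor of GATA factors. Pbx3 lay at 24.6 and 24.9 CPM in LT-HSC and at 12.6 and 10.96 CPM in ST-HSC, without overlap (1.07, SE 0.23, adjusted p = 0.00012). The first of these values came from 3 UMIs, the floor of that library. Zfpm1 lay at 123 and 114 CPM in LT-HSC and at 92.8 and 58.3 CPM in ST-HSC, where mouse 1 was closer to LT-HSC (0.60, SE 0.19, adjusted p = 0.0222). Pbx3 was called on the unfiltered sum as well (1.00, adjusted p = 0.00206), while Zfpm1 was not (0.71, SE 0.21, adjusted p = 0.0567), and 9 of 18 alternative settings ended the call of Zfpm1. Meis1 itself, the protein that Pbx3 binds, gave 0.32 in the same fit without passing. Cofactors of Gfi1b (Kdm1a, Rcor1, Hdac1, Hdac2), the core binding factor subunit Cbfb and the E-box complex genes Tal1, Lyl1, Lmo2 and Ldb1 did not pass on kept cells. Hoxa9, the other partner of Meis1, gave -0.50 (SE 0.19, adjusted p = 0.108) and passed on the unfiltered sum (-0.61, SE 0.17, adjusted p = 0.038).

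Mllt3 itself was called higher by 1.57. The elongation and DOT1L complex genes that it works with gave no call on kept cells, 0 of 13. With 3.6% of all genes tested called higher and 3.13% lower, a count of 0 among 13 is near the share over all genes. The median of the 13 was 0.03, and their log2 fold changes ran from -0.53 for Dot1l to 0.14 for Ell2. On the unfiltered sum, the methyltransferase gene Dot1l alone was called, and lower (-0.65, SE 0.18, adjusted p = 0.0473), where 3.82% of all genes were called lower. Of 9 genes described as targets of the factors, 8 were tested, 2 were called higher, Gata2 among them, and Spi1 and Flt3 were called lower. Spi1, a factor of granulocytes, macrophages and B cells, lay at 98.3 and 82.6 CPM in LT-HSC and at 123 and 131 CPM in ST-HSC (-0.59, SE 0.19, adjusted p = 0.0403). It was not called on the unfiltered sum (-0.50, adjusted p = 0.0748), and 11 of 18 alternative settings ended its call. Flt3, the cytokine receptor of multipotent progenitors, lay at 8.20 and 14.9 CPM in LT-HSC, the first from 1 UMI, and at 136 and 160 CPM in ST-HSC. Its log2 fold change was -3.33 (SE 0.23, adjusted p = 1.01e-36), and Flt3 was also called on the unfiltered sum (-3.50, adjusted p = 6.93e-07).

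Of 15 lineage factors chosen by name, 13 were tested, none was called higher and 5 were called lower in LT-HSC. Their median log2 fold change was -0.62, beside -0.02 for all genes, of which 3.6% were called higher and 3.13% lower. This list too was chosen with earlier results of these data known, so its values are no independent support. The 5 were the granulocyte and macrophage factors Spi1, Cebpa and Gfi1 and the lymphoid factors Ikzf1 and Satb1. Cebpa, the factor that starts the granulocyte program, lay at 0 and 1.00 CPM in LT-HSC and at 14.1 and 14.1 CPM in ST-HSC (-3.81, SE 0.41, adjusted p = 5.2e-17). Satb1, a chromatin organiser of lymphoid priming, lay at 0 and 8.10 CPM in LT-HSC and at 41.0 and 37.1 CPM in ST-HSC (-2.30, SE 0.25, adjusted p = 2.67e-16). For both, the value of 0 is under the floor of 26.02 CPM of that library, and unfiltered it held 10 and 62 UMIs of these genes. Ikzf1 had an adjusted p of 0.0242, and of 0.0513 with the mouse as a block. The remaining 8 were not called. With LT-HSC of mouse 1 unfiltered, Cebpa (adjusted p = 2.32e-06), Satb1 (9.19e-06), Gfi1 and Ikzf1 (0.00904) were called lower again, Spi1 was not, and the erythroid factor Gata1, at 0.92 on kept cells (adjusted p = 0.484), was at 1.22 (0.12, and 0.0143 with a mouse block). The summed levels of macrophage and monocyte markers were 0 and 11.2 CPM in LT-HSC, against 26.9 and 38.8 CPM in ST-HSC, with 7 of 7 at 0 in LT-HSC of mouse 1 and 0 of 7 in the other libraries. Their part, and that of the neutrophil markers above, in the lineage factors was not tested.

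Across single cells, the factors were detected in very unequal shares of cells. To compare libraries of different depth, each cell with 5000 or more UMIs was thinned to that number, which left 1146 of 1217 cells in LT-HSC of mouse 2 and 2564 of 2633 and 1590 of 1707 cells in ST-HSC. LT-HSC of mouse 1 had 9 such cells and is left out of the shares. Mllt3 had a UMI in 64.5% of cells in LT-HSC (exact Clopper-Pearson 95% interval 61.6 to 67.3), against 32.4% (30.6 to 34.3) and 31.3% (29.0 to 33.7) in ST-HSC. Gata2 had one in 46.1% of LT-HSC, against 26.1% and 24.1% of ST-HSC. Gfi1b had one in 11.7% (9.89 to 13.7) of LT-HSC, against 4.99% (4.18 to 5.91) and 2.89% (2.13 to 3.84) of ST-HSC. For these genes the interval of the LT-HSC library lay clear of both ST-HSC intervals, as it did for Mecom, with 47.9% against 33.9% and 38.6%. Among 5754 genes with a mean of 0.1 or more UMIs per thinned cell, 3.96% lay clear above and 5.18% clear below. Those genes included 7 of the factors, of which 3 lay clear above and 1 clear below, while Gfi1b was too rare to be among them. The intervals cover counting error in 1 LT-HSC library and are no test of the gates.

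Hlf was detected in 84.4% (82.1 to 86.4) of thinned LT-HSC, against 93.7% (92.7 to 94.6) and 92.5% (91.0 to 93.7) of ST-HSC, a lower share in that LT-HSC library. In unthinned cells the shares of Hlf were 95.6% in LT-HSC and 98.3% and 96.6% in ST-HSC, and the intervals of LT-HSC and of ST-HSC of mouse 2 overlapped. Meis1 was at 79.5% in LT-HSC, against 75.9% and 74.9% in ST-HSC, Runx1 at 37.8%, against 39.2% and 36.2%, Erg at 12.1%, against 14.9% and 11.8%, and Prdm16 at 10.8%, against 8.35% and 6.54%. Those 4 had an LT-HSC interval that overlapped at least 1 ST-HSC interval. Unthinned, Mllt3 was in 82.4% of LT-HSC, against 51.2% and 42.4% of ST-HSC, Gata2 in 68.6%, against 44.4% and 34.1%, and Gfi1b in 22.8%, against 8.55% and 4.10%. The median depth of these cells was 10367 UMIs in LT-HSC of mouse 2, against 9881 and 7504 UMIs in ST-HSC. No cell type without these factors was in the sort, so no background share from free RNA can be given, and its part in the shares was not tested.

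**Figure D4:**
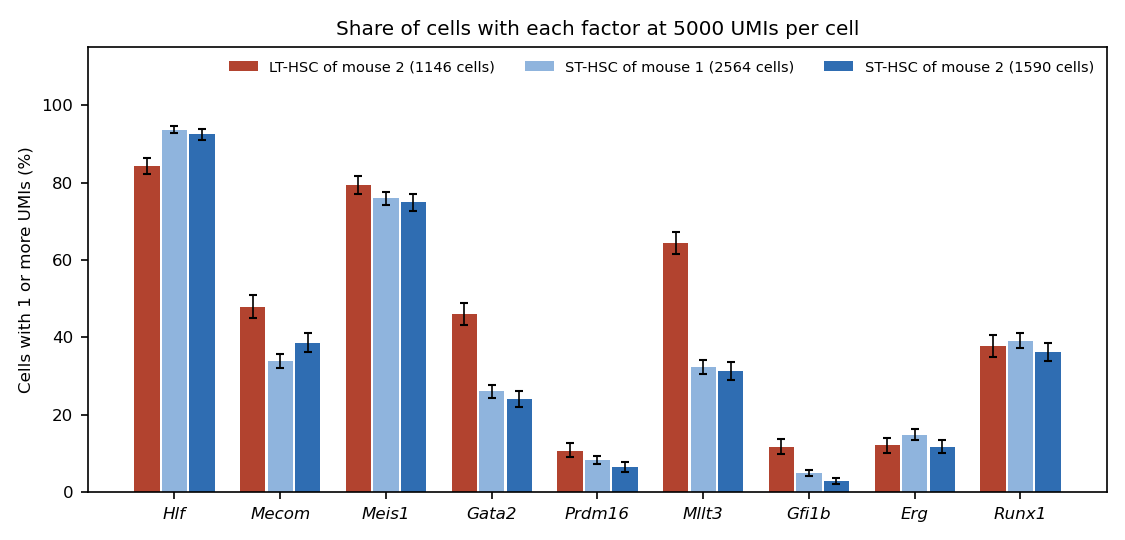
Share of cells with 1 or more UMIs of each factor (vertical axis, percent, starting at 0) after thinning to 5000 UMIs per cell, in LT-HSC of mouse 2, ST-HSC of mouse 1 and ST-HSC of mouse 2, with exact 95% intervals. The LT-HSC bar is higher for Mllt3 (64.5%), Gata2 (46.1%), Mecom (47.9%) and Gfi1b (11.7%) and lower for Hlf (84.4%).

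A thinned LT-HSC cell held UMIs of a median of 4 of the 9 factors, and an ST-HSC cell of 3 in both mice. None of the 9 was seen in 0.436% of LT-HSC cells and in 0.624% and 0.881% of ST-HSC cells, and no cell held all 9. Counts of Hlf and Mllt3 varied between cells by more than sampling alone, where a variance-to-mean ratio of 1 is that of pure sampling. The ratio was 1.80 for Mllt3 in LT-HSC and 1.66 and 1.69 in ST-HSC, and for Hlf 1.65 in LT-HSC and 1.80 and 1.74 in ST-HSC. For Gfi1b it was 1.31 in LT-HSC and 1.01 and 1.05 in ST-HSC, and for the other 6 it stayed between 0.961 and 1.26 in all 3 libraries.

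Correlations of the factors from cell to cell were weak. Over the 36 pairs, the median Pearson r of log2(count + 1) in thinned cells was 0.013 in LT-HSC of mouse 2 and 0.023 and 0.025 in ST-HSC of mice 1 and 2, with 1146, 2564 and 1590 cells. The cells of a library share its preparation and differ in depth before thinning, and counts this sparse push r towards 0. Pairs among 5754 well-detected genes, 7 of the 9 factors included, had a median r near 0.000 and a 5th to 95th percentile range of -0.050 to 0.053 in LT-HSC and of -0.034 to 0.036 and -0.042 to 0.045 in ST-HSC. Of the 21 pairs among those 7 factors, 5 lay above the 95th percentile in LT-HSC, and 11 and 9 in ST-HSC. The percentiles were not matched for the level of the genes, and this tally was not repeated with a cell's UMI total taken out. The highest was the pair of Hlf and Mllt3, still weak, with r = 0.175 in LT-HSC and 0.130 and 0.157 in ST-HSC, the one pair whose mean r passed 0.1. Both were seen in 56.3% of LT-HSC cells, where independence would give 54.4%, and in 30.7% and 30.1% of ST-HSC cells, where it would give 30.4% and 29.0%.

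Mecom went weakly with the same genes, with r of 0.123 in LT-HSC and 0.051 and 0.096 in ST-HSC for Mllt3, and of 0.096, 0.052 and 0.109 for Hlf. Of the 36 pairs, 17 were above 0 in all 3 libraries and 4 below 0 in all 3. The lowest mean was that of Mecom and Gfi1b, at -0.066 in LT-HSC and -0.024 and -0.029 in ST-HSC, which is too weak in such sparse counts to be called a finding. Depth moved with the strongest pair. After thinning, Hlf still correlated with the log2 of a cell's original UMI total at -0.334 in LT-HSC and -0.252 and -0.312 in ST-HSC, and Mllt3 at -0.306, -0.237 and -0.191. On residuals from that total, the r of Hlf and Mllt3 was 0.081 in LT-HSC and 0.074 and 0.104 in ST-HSC. In LT-HSC that pair was then no longer the highest, since Mecom with Mllt3 was at 0.091. In cells with 0 UMIs of 5 mitotic genes the r of Hlf and Mllt3 was 0.139 in LT-HSC and 0.129 and 0.155 in ST-HSC.

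**Figure D5:**
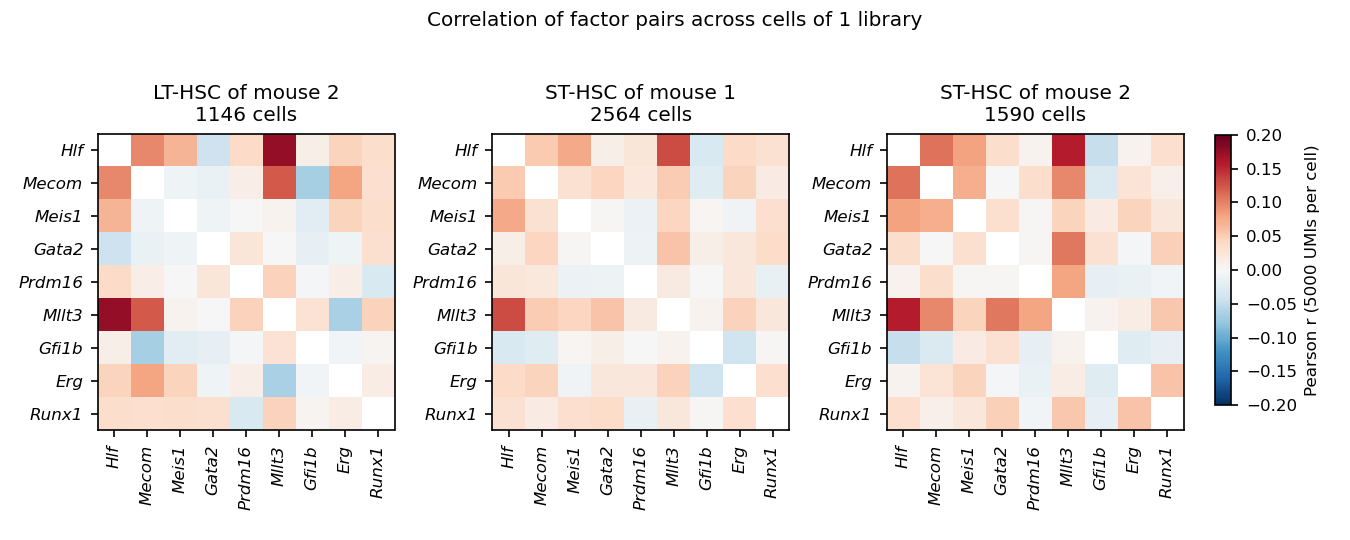
Pearson r of log2(count + 1) for each pair of factors across cells thinned to 5000 UMIs, in LT-HSC of mouse 2 (1146 cells), ST-HSC of mouse 1 (2564) and ST-HSC of mouse 2 (1590), on a colour scale from -0.20 to 0.20. The darkest cell in each panel is Hlf with Mllt3 (0.175, 0.130 and 0.157), and most other pairs are close to 0.

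The genes whose counts went most like a factor's across thinned cells, by mean r over these 3 libraries among 5754 genes, included the nuclear RNA Malat1 for 7 of the 9. A cell's UMI total, with which Hlf and Mllt3 still correlated after thinning, was not taken out of these values, and its part in them was not tested. For Hlf the first were Malat1 (mean r 0.272) and Lmo2 (0.208), and for Mllt3 Ifitm1 (0.274) and Malat1 (0.224). Ifitm1, an interferon-induced membrane protein gene, correlated with Mllt3 at 0.358 in LT-HSC and at 0.228 and 0.237 in ST-HSC. For Mecom they were Malat1 (0.146) and Ifitm1 (0.120), and for Meis1 Malat1 (0.126) and Gm16141 (0.075). Gm16141 lies within Meis1 on the opposite strand, and since the labels and headers do not say whether counting used strand, reads of the pair cannot be told apart. The most alike genes of Gata2 (Ikzf2 and Pdzk1ip1), Prdm16 (Malat1 and Dennd2d), Gfi1b (Slc18a2 and Paqr7), Erg (Gm26917 and Malat1) and Runx1 (Pfdn5 and Malat1) had a mean r between 0.052 and 0.076, too weak to set them apart.

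In cells with mitotic transcripts, the CPM of every factor but Gfi1b was lower than in the remaining cells of the same library, in all 3 libraries compared. Of the 5754 genes above, 39.3% were lower in all 3. Among those 8 factors, the 95% counting interval of the ratio included 1 for Gata2 and Erg in LT-HSC of mouse 2 and for Prdm16 in ST-HSC of mouse 2. Cells with 3 or more UMIs of the mitotic genes Mki67, Top2a, Cdk1, Ccnb2 and Birc5 numbered 104 in LT-HSC of mouse 2 and 228 and 97 in ST-HSC. Mllt3 was at 102 CPM in those LT-HSC cells and 284 CPM in the remaining LT-HSC cells, a log2 ratio of -1.47, and the ratios in ST-HSC were -0.77 and -1.31. Hlf was at 266 CPM in mitotic and 504 CPM in the remaining LT-HSC cells (-0.92), with log2 ratios of -0.62 and -0.75 in ST-HSC. Mecom had log2 ratios of -0.80 in LT-HSC and -0.47 and -0.72 in ST-HSC. Gfi1b did not share that direction, with 0.02 in LT-HSC and 0.69 and 0.25 in ST-HSC. Mitotic cells had more UMIs, with medians of 18411.5 in mitotic and 10071 in the remaining LT-HSC cells, and since CPM is a share of a cell's RNA, a lower share and a larger total cannot be told apart here. These splits compare cells of 1 library and carry no test.

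Within each gate, Mllt3 and Gata2 were also lower in cells with a UMI of Flt3. In the 166 such LT-HSC cells Mllt3 was at 165 CPM, against 273 CPM in the 1051 LT-HSC cells without Flt3 (log2 ratio -0.72), and in ST-HSC the log2 ratios were -0.50 and -0.53. For Gata2 the log2 ratios were -0.31 in LT-HSC and -0.29 and -0.52 in ST-HSC. Hlf showed the reverse by little, with 0.06 in LT-HSC and 0.15 and 0.14 in ST-HSC. Prdm16 and Mecom were lower in the LT-HSC cells with Flt3 (95% counting intervals of the ratio 0.386 to 0.860 and 0.699 to 0.941). In ST-HSC the intervals of both genes included 1 in either mouse. Median depth was 10720.5 UMIs in LT-HSC cells with Flt3 and 10248 UMIs in those without. In LT-HSC of mouse 2, the 194 cells with a UMI of Vwf, a platelet-lineage gene that marks part of the LT-HSC pool, had 362 CPM of Mllt3, against 236 CPM in the other 1023 cells (95% counting interval of the ratio 1.41 to 1.66). Mecom was at 156 CPM in LT-HSC cells with Vwf and 122 CPM in those without (interval of the ratio 1.14 to 1.45), and Gata2 at 137 and 131 CPM (0.924 to 1.19). Hlf went the other way, at 416 and 481 CPM (0.806 to 0.928). Median depth was 10902 UMIs with Vwf and 10207 UMIs without. In ST-HSC, with 80 and 48 cells with Vwf, the interval of the Mllt3 ratio included 1 in both mice. That of Hlf was 1.07 to 1.24 in mouse 1 and 0.916 to 1.17 in mouse 2. Shares over all genes were not computed for the Flt3 and Vwf splits.

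In the mm10 annotation used here the factor genes lie at chr11:90336536-90390895 (Hlf), chr3:29951296-30548008 (Mecom), chr11:18879817-19018985 (Meis1), chr6:88193891-88207032 (Gata2) and chr4:154316125-154636873 (Prdm16). Mllt3 lies at chr4:87769925-88033364, Gfi1b at chr2:28609450-28621982, Erg at chr16:95359169-95586593 and Runx1 at chr16:92601466-92826149. Gata2 is on the plus strand and the others are on the minus strand, and all are protein coding. Genes on the opposite strand within Mecom, Meis1, Prdm16 and Runx1 took few UMIs except at Meis1, where Gm16140 and Gm16141 held 433 and 546 UMIs in LT-HSC of mouse 2, beside 4483 UMIs of Meis1. No annotated gene overlaps Hlf, Gata2, Mllt3, Gfi1b or Erg.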

How the data were processed

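The authors deposited raw UMI counts per gene and barcode for each library. The submitters' processing notes name Cell Ranger 3.1.0 and mm10, and the matrices name software version 3.0.2, per the file headers. Barcode selection and strand use are not given in the sources used here.

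Cells were barcodes with 1000 genes, 2000 UMIs and up to 10% mitochondrial UMIs, and no doublet caller was run. Counts were summed per library, since cells are not replicates, and compared by the quasi-likelihood F-test of edgeR 4.0.16 (TMM, filterByExpr defaults, gate as the only factor) in R 4.3.3, with Benjamini-Hochberg adjustment over all genes tested and a threshold of 0.05. Positive log2 fold changes mean higher in LT-HSC. The SE is the size of the log2 fold change over the square root of F, and its interval uses the total degrees of freedom of the fit, which borrow the spread of all genes. CPM in the gate comparison is TMM-scaled. Marker sums, Slamf1, within-mouse ratios, cell splits and the levels of Hlf by barcode depth use plain totals. The unfiltered sum of LT-HSC of mouse 1, a mouse block, DESeq2 1.42.0, other filters and leaving out each library were alternatives. Libraries of the same number came from the same mouse, which makes them pairs, although their deviations from the gate means correlated at only 0.0549. With 2 mice, p-values rest on little animal replication.

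Cells were thinned without replacement at a fixed seed. Sequences are from RefSeq, where all 9 genes matched. In simulated counts for kept cells, 94% of 100 genes with a log2 change of 1 and 100% of 100 genes with one of 2 were called, beside 7 false calls in 12344 genes. For the unfiltered sum the shares were 94% and 100%, beside 39 false calls in 12722 genes. The changed genes were drawn only from genes of higher mean CPM, so these shares do not describe rarer genes such as Meis2 and Cebpa. The factors and gene lists were chosen with earlier results of these data known. Named genes are the 9 factors, list genes past the threshold, the 2 genes most alike per factor and the sort genes. Others, such as Hoxa9, Dot1l, Ets2 and Tgif1, were named after their values were seen. Some genes of the lists are not reported here.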

Additional observations from a re-analysis of the deposited data

Results flagged for a closer look

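On the unfiltered sum of LT-HSC of mouse 1, the mice pointed in opposite directions for Erg and Runx1 on TMM-scaled CPM. The difference between the mice was not tested. For Erg, LT-HSC minus ST-HSC on the log2 scale was -0.347 in mouse 1 and 0.0303 in mouse 2. For Runx1 it was -0.22 in mouse 1 and 0.115 in mouse 2. On plain totals the values were -0.582 and 0.0423 for Erg and -0.455 and 0.127 for Runx1, mouse 1 before mouse 2. Meis1 was then opposite as well, at -0.178 in mouse 1 and 0.190 in mouse 2.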

How the results depend on the processing

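All factors but Erg and Runx1 kept their direction in every setting run for them. Gfi1b could not be tested when cells with 5 or more UMIs of other cell types' markers were left out, since too few counts remained. The main counts were 455 genes higher, 396 lower, 4 factors higher, 0 factors lower and 13 list genes called. DESeq2 gave 28, 24, 1 higher factor and 2 list genes. Leaving out those marker-carrying cells, which kept only 7 and 82 LT-HSC cells and 77 and 114 ST-HSC cells, gave 18, 24, 1 and 2. The unfiltered sum with the mouse as a replicate block gave 849 and 628 genes. Leaving out 1 library at a time gave 1 to 604 genes higher, 0 to 536 lower, 0 to 3 factors higher, 0 to 1 lower and 0 to 16 list genes, with the lowest counts without LT-HSC of mouse 2. Without ST-HSC of mouse 2 the counts were 602, 365 and 8 list genes, and without LT-HSC of mouse 1 there were 10 list genes. Hlf was the 1 factor called lower, on the unfiltered sum (edgeR, DESeq2, replicate block, and without LT-HSC of mouse 2) and with the looser filter. Erg (-0.07) changed sign to 0.22 with DESeq2, 0.12 with the replicate block, 0.92 without LT-HSC of mouse 2, 0.18 without ST-HSC of mouse 1 (-0.17 without that of mouse 2) and 0.26 without marker-carrying cells. Runx1 (0.08) changed sign on the unfiltered sum, to -0.048, to -0.053 with the replicate block, to -0.068 with DESeq2, and to -0.19, -0.012 and -0.095 without LT-HSC of mouse 2, ST-HSC of mouse 1 and ST-HSC of mouse 2. Neither passed the threshold in any setting run. Ikzf1 changed sign to 0.018 without marker-carrying cells. The cause of these changes was not tested.

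The median r over pairs was 0.0013 in LT-HSC of mouse 2 and 0.012 and 0.014 in ST-HSC at 2000 UMIs per cell, 0.043, 0.056 and 0.0072 without marker-carrying cells, 0.037 in ST-HSC of mouse 1 without thinning and 0.012 in ST-HSC of mouse 2 on residuals from the UMI total. Thinned to 2000 UMIs, the LT-HSC share of 6 factors lay outside both ST-HSC intervals, Meis1 added as higher. A second marker rule, added after seeing the data, left 22 and 1213 LT-HSC cells and 2614 and 1681 ST-HSC cells, with an adjusted p of 0.0607 for Mecom. The replicate block changed no call on kept cells, among the genes named here, other than those of Mecom, Gata3, Ikzf1, Ets2 and Tgif1. DESeq2 on the unfiltered sum, the correlation on residuals and in cells without mitotic UMIs, and unthinned shares were added too. Depth limits LT-HSC of mouse 1 most, where the floor is 26.02 CPM.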
